A study of Rattus norvegicus with 2 samples.

Results

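The 4 families of chemosensory receptors described here are the taste receptors of type 1 (Tas1r) and type 2 (Tas2r), the trace amine-associated receptors (Taar) and the type 1 vomeronasal receptors (Vom1r). Their probes were picked from the arrays by gene name alone, which gave 150 probes for 146 genes among 30367 rat probes. There were 4 Tas1r probes for 3 genes, 32 Tas2r probes for 32 genes, 17 Taar probes for 15 genes and 97 Vom1r probes for 96 genes. RNA came from the nucleus tractus solitarius (NTS) of Wistar Kyoto rats, an inbred strain, at 9 weeks of age, fed freely. Equal amounts of RNA (100 ng per rat) from 5 males made up the male pool, and 5 females made up the female pool in the same way. Each pool was labelled with Cy3 and hybridised to 1 single-colour array of 60-base probes. A difference between the pools is therefore a difference between 2 arrays, with no replicate check and no test, and the spread between rats is not seen.

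All 4 families are G protein-coupled receptors. In taste cells of the tongue, Tas1r1 pairs with Tas1r3 to sense umami, Tas1r2 pairs with Tas1r3 to sense sweet compounds, and each Tas2r responds to its own range of bitter compounds. Most trace amine-associated receptors detect volatile amines in the nose, whereas Taar1 is also known in monoamine neurons of the brain. Type 1 vomeronasal receptors detect pheromones in sensory neurons of the vomeronasal organ. The NTS is the first central relay of taste, but the cells that carry the taste receptors lie in the mouth and not in this nucleus.

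The dissection carried the markers of its tissue. All 8 genes of an NTS and hindbrain list that had probes were well above background in both pools, as were 80.8% of all rat probes. Among the 8 were Dbh and Th of catecholamine neurons, Prlh, Tlx3 and Hoxb5. The Dbh probe gave 34700 in the male and 32900 in the female pool, in arbitrary units of processed signal. Phox2a (154 and 162) and Lmx1b (178 and 205) were the dimmest of the list. Markers of neighbouring tissue were present too, and they were higher in the male pool for 5 of 5 choroid plexus genes (median difference -0.21), 4 of 4 meningeal genes (-0.16) and 3 of 3 red cell genes (-0.81). These are log2 differences, female minus male, after each array was scaled to its 75th percentile. Of all 24532 probes well above background in both pools, 13129 were higher in the male pool. Clic6 of the choroid plexus list differed by only -0.09, and the 2 probes of the meningeal gene Col1a1 by -0.2 and 0.01. Scaling by spike-in probes moved all probes by 0.67 toward the female pool, further than the choroid plexus and meningeal medians. The part of these tissues in the receptor values was not tested. The 75th percentile of signal was 3440 on the male and 3380 on the female array, and no rat spot was saturated.

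Since the readout of each receptor is a 60-base designed probe, the probes that the results turn on are printed 5′ to 3′ as the array files give them, with positions on the rat rn4 build. The taste receptor probes are shown because both subunits of each type 1 receptor could be read. The capitals in the Tas1r3 probe mark the stop codon that closes its open frame.
Tas1r1: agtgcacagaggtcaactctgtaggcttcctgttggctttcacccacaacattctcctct
Tas1r2, probe detected in both pools: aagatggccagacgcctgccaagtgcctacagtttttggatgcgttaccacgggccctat
Tas1r2, probe detected in the female pool: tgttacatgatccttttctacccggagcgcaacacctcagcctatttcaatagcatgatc
Tas1r3: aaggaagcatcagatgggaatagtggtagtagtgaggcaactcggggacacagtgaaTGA
Tas2r113: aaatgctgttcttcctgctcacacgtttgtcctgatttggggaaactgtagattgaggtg
The Tas1r1 probe lies at chr5:169256748-169256807 on the minus strand. The Tas1r2 probes lie at chr5:158473476-158473535 and chr5:158473927-158473986 on the plus strand. The Tas1r3 probe lies at chr5:172718551-172718610 on the minus strand. The Tas2r113 probe lies at chr4:170154813-170154872 on the minus strand. The exon structure around these positions was not used here.

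The trace amine receptor probes are shown for Taar1 and Taar8c, and for 3 members of the Taar7 subfamily whose probes were placed at the same point of the coding sequence. The capitals mark the stop codon.
Taar1: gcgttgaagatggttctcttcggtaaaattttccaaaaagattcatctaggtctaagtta
Taar8c: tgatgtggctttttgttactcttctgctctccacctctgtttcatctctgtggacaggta
Taar7b: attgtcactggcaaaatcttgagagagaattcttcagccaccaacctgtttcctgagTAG
Taar7d: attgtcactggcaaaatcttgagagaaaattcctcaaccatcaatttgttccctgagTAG
Taar7h: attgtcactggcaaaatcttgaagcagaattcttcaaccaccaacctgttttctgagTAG
The Taar7b probe matched the Taar7d probe at 53 of 60 bases and the Taar7h probe at 55 of 60 bases. All 3 lie on the minus strand of chromosome 1, at chr1:21967019-21967078, chr1:21934361-21934420 and chr1:21898531-21898590. Taar1 lies at chr1:22045373-22045432 on the minus strand and Taar8c at chr1:21814963-21815022 on the plus strand.

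The vomeronasal probes are shown for the members with the signals described further on and for close relatives of them. Capitals in the Vom1r23 and Vom1r98 probes mark the stop codon, and capitals in each of the pairs 28 with 109, 70 with 71 and 72 with 76 mark the longest run of bases that the pair shares.
Vom1r55: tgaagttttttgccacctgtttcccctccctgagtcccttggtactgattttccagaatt
Vom1r57: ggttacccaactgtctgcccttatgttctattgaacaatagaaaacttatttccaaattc
Vom1r61: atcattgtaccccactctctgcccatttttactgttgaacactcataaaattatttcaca
Vom1r23: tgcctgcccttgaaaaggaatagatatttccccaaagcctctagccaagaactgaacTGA
Vom1r98: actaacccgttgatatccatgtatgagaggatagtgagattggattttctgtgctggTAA
Vom1r28: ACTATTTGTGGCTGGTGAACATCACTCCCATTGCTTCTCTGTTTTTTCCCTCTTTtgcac
Vom1r109: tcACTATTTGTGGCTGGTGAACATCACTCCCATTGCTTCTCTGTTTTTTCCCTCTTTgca
Vom1r70: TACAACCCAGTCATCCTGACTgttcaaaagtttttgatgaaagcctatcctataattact
Vom1r71: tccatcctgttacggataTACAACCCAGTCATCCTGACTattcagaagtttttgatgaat
Vom1r72: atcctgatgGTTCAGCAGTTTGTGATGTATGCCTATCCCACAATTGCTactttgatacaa
Vom1r76: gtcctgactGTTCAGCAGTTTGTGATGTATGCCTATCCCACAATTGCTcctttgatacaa
Vom1r28 and Vom1r109 share a run of 55 bases, so RNA of either gene could bind both probes and their values are not independent. Vom1r70 and Vom1r71 share a run of 21 bases, and Vom1r72 and Vom1r76 share a run of 39. Of the 150 probes, 27 share a run of 20 bases or more with a probe of another gene on the arrays. The Vom1r23 probe lies at chr1:59830099-59830158 on the minus strand, the Vom1r98 probe at chr4:124057171-124057230 on the plus strand and the Vom1r55 probe at chr1:73340793-73340852 on the plus strand.

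Most receptor probes did not pass the mark of detection. A probe was counted as detected when the scanner software marked it as well above background. Of the 150 receptor probes, 40 (26.7%) were detected in the male pool, 51 (34%) in the female pool and 39 (26%) in both, whereas 98 were detected in neither. Over all 30344 rat probes with a usable spot, the shares were 81.4%, 84.5% and 80.8%. Another 12 receptor probes were detected in the female pool only and 1 in the male pool only. In whole tissue, a signal near background cannot tell few cells with much of an RNA from many cells with little of it.

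The level of background was read from 153 spots of a negative control, a sequence designed to have no target. These gave a median of 3.12 and a 95th percentile of 4.47 on the male array, and a median of 2.3 and a 95th percentile of 2.93 on the female array. The median receptor probe gave 3.93 in the male and 5.27 in the female pool, against 315 and 299 over all rat probes. The 98 receptor probes detected in neither pool ranged from 2.52 to 11.9 (median 3.39) on the male array and from 1.86 to 12.6 (median 2.68) on the female array. In the male pool 71 receptor probes, and in the female pool 51, had values too low to measure, which the software had replaced with surrogates, and such values have no order among themselves. Of the 153 control spots, 144 on the male and 149 on the female array held surrogates too. The control medians, and multiples of them given further on, thus rest mostly on replaced values and not on a measured level.

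The highest negative control spot read 24.4 for the male pool and 63.1 for the female pool. Above it on both arrays were 16 receptor probes (10.7%), against 68.3% of all rat probes: Tas1r1, Taar1, Taar8c and 13 Vom1r members. These high control spots carried outlier flags, however, and the highest of the 138 control spots without such a flag gave 4.4 and 3.06, with 72 and 92 receptor probes above it. Of the 98 probes detected in neither pool, 21 on the male and 40 on the female array lay above that unflagged control. Most control values were surrogates, and surrogates of receptor probes reached 4.2 and 3.06. Lying above that control thus mostly means that a value was not a surrogate, and not that it passed a measured level of background. The count of receptors above background thus moved with the ruler, as the closing section gives in full. Among 1390 rat probes spotted 10 times on each array, some had spots on both sides of the detection mark; 27 did so on the male array, nearly all at signals between 9.02 and 23.6, and 26 on the female array, between 4.21 and 14.5. Single-spot probes in these ranges, 14 receptor probes on the male and 36 on the female array, could have fallen on either side. Above both ranges on both arrays lay 34 receptor probes.

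**Figure D1:**
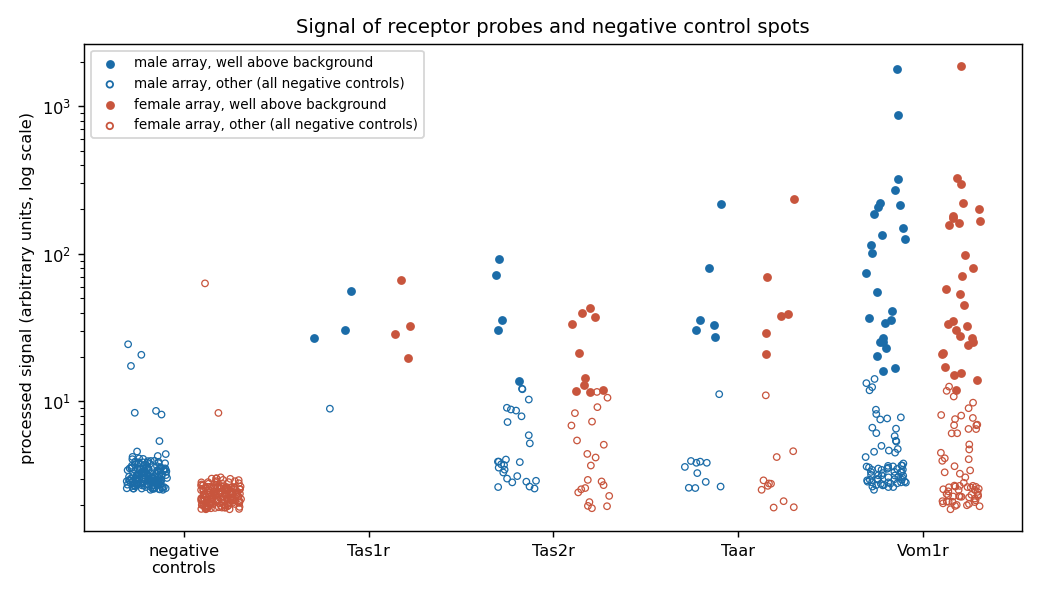
Processed signal (arbitrary units, log scale) of every negative control spot and every receptor probe, by family, on the male and the female array; filled points are well above background. Filled points make up 40 of 150 receptor probes on the male and 51 on the female array, and Vom1r55 reaches 1780 and 1870.

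The share of probes detected ran from 15.6% in the bitter receptors to 75% in the type 1 taste receptors. In both pools, 3 of 4 Tas1r probes (75%), 5 of 32 Tas2r probes (15.6%), 6 of 17 Taar probes (35.3%) and 25 of 97 Vom1r probes (25.8%) were detected. The type 2 vomeronasal receptors, which are not members, had 22 of 97 probes (22.7%) detected in both pools, and the odorant receptors (Olr) had 297 of 1198 (24.8%). The share of Vom1r probes thus lay close to those of the other large receptor families of the nose. No test of the differences between families was made.

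**Figure D2:**
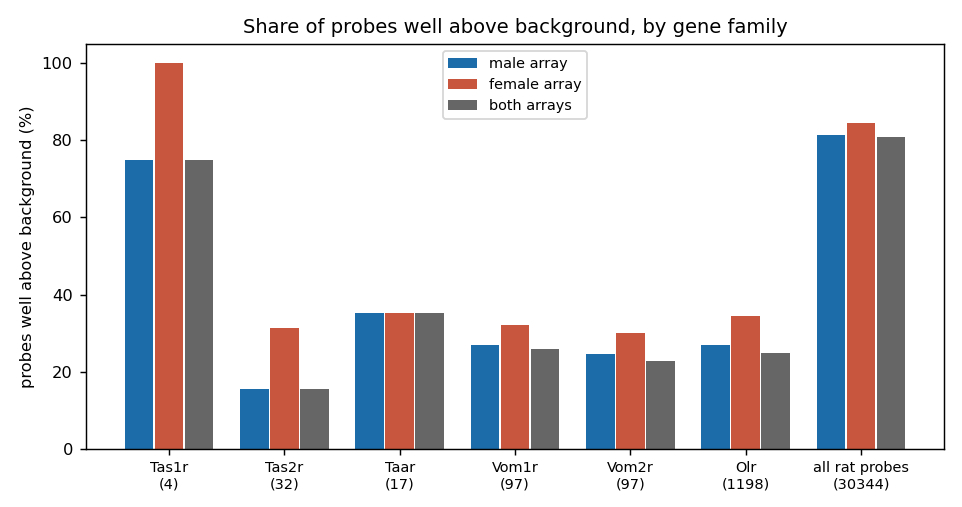
Share of probes well above background (percent) on the male array, the female array and both, for each receptor family, for 2 other families of the nose and for all rat probes, with the number of probes in brackets. The families of the nose lie between 22.7% and 35.3% on both arrays, and all rat probes at 80.8%.

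The type 1 taste receptors were read at low signals that hardly differed between the pools. Tas1r1, the umami subunit, gave 55.6 in the male and 66.2 in the female pool, a difference of 0.28 on the log2 scale with a spot SD of 0.15. The spot SD is the technical spread of such a difference for repeated probes of like brightness, and it leaves out the spread between rats. Tas1r3, the subunit that both receptors share, gave 26.7 and 28.6, a difference of 0.12 with a spot SD of 0.27. Tas1r2, the sweet subunit, had 2 probes that parted on detection. Its detected probe gave 30.6 and 32.3 (difference 0.10, spot SD 0.27), while the other gave 8.93 in the male pool, not well above background, and 19.7 in the female pool, at least 1.53-fold higher there. Such a bound sets the detected value against the higher of the probe's own value and the lowest detected value of the other array. All 3 genes lay within 2 spot SDs of equality on their probes detected in both pools.

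Of the 32 bitter receptor probes, 22 were detected in neither pool, 5 in the female pool only and 5 in both. The 22 undetected probes ranged from 2.57 to 9.06 on the male and from 1.89 to 11.6 on the female array. They were Tas2r7l, Tas2r13, Tas2r102, Tas2r103, Tas2r105, Tas2r106, Tas2r107, Tas2r108, Tas2r110, Tas2r114, Tas2r119, Tas2r120, Tas2r123, Tas2r125, Tas2r126, Tas2r134, Tas2r135, Tas2r137, Tas2r138, Tas2r140, Tas2r143 and Tas2r144. No bitter receptor probe lay above the highest negative control on both arrays, while 14 lay above the highest control spot without an outlier flag on both.

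Of the 5 bitter receptors detected in both pools, Tas2r121 differed the most. Its probe gave 91.7 in the male and 33.6 in the female pool, which is 2.68-fold higher in the male pool (log2 difference -1.42, spot SD 0.15). It fell short of 2-fold with spike-in scaling (-0.75) and with normexp background correction (-0.61). Tas2r113 gave 71.7 and 42.8, also higher in the male pool (-0.72, spot SD 0.15), though short of 2-fold, and -0.05 with spike-in scaling. Tas2r109 gave 35.5 and 39.5 (0.18), Tas2r116 gave 30.6 and 37.1 (0.30), and Tas2r124 gave 13.7 and 11.9 (-0.18), each with a spot SD of 0.27 and within 2 of it. In the female pool only, Tas2r104 gave 21.3 against 12.1, at least 1.65-fold higher. Tas2r136 gave 14.5 against 10.3 (at least 1.12-fold), Tas2r139 gave 13 against 7.93 (at least 1.01-fold), and no bound could be given for Tas2r118 (11.6 against 12.2) and Tas2r129 (11.7 against 7.25). The probes of all 5 receptors detected in both pools lie in the bitter receptor cluster of chromosome 4, which held 20 of the 32 probes between positions 169254152 and 170834826.

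The machinery that turns receptor activation into a taste signal was read in part. Of 13 taste cell genes on the arrays, 10 were detected in both pools, Pou2f3 in the female pool only and 2 in neither. Of all rat probes, 80.8% were detected in both pools, so the count sets this list apart in no way. The brightest of the 10 were Gng13 (6370 and 7100 on its brightest probe), Entpd2 and Car4 (4700 and 4980), and Krt8 and Itpr3 were also among them. Gnat3, which encodes gustducin, the G protein subunit of sweet, umami and bitter cells, gave 9.83 and 7.16 and was detected in neither. Calhm1, a subunit of the channel that releases ATP from these cells, gave 7.71 and 10.1 and was detected in neither as well. Calhm3, the partner of Calhm1 in that channel, gave 38.6 and 39.4 (0.06) and was detected in both. Trpm5, the cation channel at the end of the cascade, gave 56.7 and 58.3 (0.06). Plcb2, the phospholipase of the cascade, gave 45.9 and 36.8, a difference of -0.29 within 2 spot SDs. Pou2f3, the transcription factor of these cells, gave 14.5 in the male and 16.7 in the female pool. Pkd2l1, a channel of sour cells that is also known in neurons around the central canal, gave 150 and 290 on its brightest probe, and its 2 probes differed by 0.69 and 0.97 toward the female pool. Otop1, the proton channel of sour cells, gave 144 and 174 (0.30). No gene of this list reached 2-fold, although 1 of 3 probes of Entpd2, an ectonucleotidase also known in glia, differed by 1.16 where the gene's median was -0.05.

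The trace amine receptors had 6 probes for 5 genes detected, the same 6 in each pool, and none differed by 2-fold. Taar8c gave 218 in the male and 237 in the female pool, which were 69.9 and 103 times the median negative control, and differed by 0.15 (spot SD 0.09). Taar1, the receptor for tyramine and phenethylamine that is known in the brain, gave 80.5 and 70.2 (-0.17, spot SD 0.15). Taar5, a receptor for trimethylamine, gave 33 and 20.9, a difference of -0.63 beyond 2 spot SDs of 0.27 that became 0.04 with spike-in scaling. Taar2 gave 27.2 and 38.9 (0.54), no further than 2 spot SDs from 0, and differed by 1.21 with spike-in scaling and 0.24 with normexp.

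The Taar7 subfamily gave signal at 1 gene. The 2 probes of Taar7b gave 35.4 and 30.7 in the male pool and 38 and 28.9 in the female pool, so that both of its probes were detected in both pools. The Taar7d probe that matches one of them at 53 of 60 bases gave 3.95 and 2.92, and the Taar7h probe that matches it at 55 of 60 gave 3.91 and 4.2. The other probe of Taar7d was also detected in neither pool, as were Taar7a, Taar7g, Taar3, Taar4, Taar6, Taar8a, Taar8b and Taar9. These 11 undetected probes ranged from 2.59 to 11.2 on the male and from 1.91 to 11 on the female array. All 17 probes lie in 1 cluster on chromosome 1 between positions 21800683 and 22045432, with Taar8c and Taar1 each near an edge of it. The brightness of a probe depends on its sequence as well as on its RNA, so these values rank no gene above another.

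Of a list of enzymes of trace amine and other amine metabolism, 9 of 9 genes were detected in both pools, and none reached 2-fold. Of all rat probes, 80.8% were detected in both pools. Th, Tph2 and Nnmt were on this list but are not particular to trace amines. Ddc, which makes trace amines from aromatic amino acids, gave 21100 and 19800 on its brightest probe (gene difference -0.09). Maob, which degrades phenethylamine, gave 5400 and 3890 (-0.45, spot SD 0.07). Fmo1, an enzyme of amine oxidation, gave 515 and 556 (0.14), and Aoc3 gave 468 and 433 (-0.09).

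The vomeronasal receptors held 65 of the 98 undetected probes, and other members of the same family stood far above the negative controls. Of 97 probes, 25 were detected in both pools, 6 in the female pool only, 1 in the male pool only and 65 in neither. Those detected in both ranged from 16.2 to 1780 (median 102) on the male and from 12 to 1870 (median 71.2) on the female array. The 65 undetected probes ranged from 2.52 to 11.9 and from 1.86 to 12.6, with medians of 3.33 and 2.64, near the medians of the negative controls. For 48 of them on the male and 35 on the female array the value was a surrogate.

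Vom1r55 stood far above background in both pools. Its single probe read 1780 in the male and 1870 in the female pool, which were 571 and 813 times the median negative control, and the difference of 0.10 lay within 2 spot SDs of 0.07. Vom1r61 gave 320 and 328 (0.06), and Vom1r57 gave 271 and 297 (0.16), each with a spot SD of 0.09. Vom1r59 gave 54.9 and 53.7 (-0.01), which is above the highest negative control on the male array only. These 4 lie within the last stretch of a cluster on chromosome 1, where Vom1r56, Vom1r58 and Vom1r62, picked for their place after the values were seen, gave 2.97 and 3.31, 3.08 and 2.26, and 3.35 and 2.51. Undetected probes therefore alternated with detected ones along the same stretch.

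Of the 13 Vom1r probes above the highest negative control on both arrays, 10 differed by less than 2 spot SDs. Besides the 3 just given, Vom1r37 gave 214 in the male and 222 in the female pool (0.08) and Vom1r78 gave 209 and 201 (-0.03). Vom1r28 gave 187 and 176 (-0.06), Vom1r40 gave 149 and 156 (0.09), and Vom1r109 gave 134 and 161 (0.29). Vom1r77 gave 102 and 98 (-0.03), and Vom1r73 gave 73.7 and 71.2 (-0.02). The other 3 differed by more, and Vom1r23 is given apart. Vom1r30 gave 114 and 168 and was higher in the female pool (0.58, spot SD 0.15), with 1.26 under spike-in scaling and 0.37 under normexp. Vom1r54 gave 126 and 80.8 and was higher in the male pool (-0.62, spot SD 0.15), but not with spike-in scaling (0.05). The listed positions of the Vom1r53 and Vom1r54 probes overlap on the minus strand of chromosome 1 (72414175 to 72414230 and 72414202 to 72414261). However, the longest run that the probes share is 13 bases, and the listed span of the Vom1r53 probe is shorter than its 60 bases. Matches broken by a gap were not counted, so how far the 2 sequences are alike over the overlap was not measured. The Vom1r53 probe gave 16.8 and 21.2 (0.36, spot SD 0.27).

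Vom1r23 had the largest difference between the pools of all 39 members detected in both. It gave 879 in the male and 181 in the female pool, 4.76-fold higher in the male pool (log2 difference -2.25, spot SD 0.09). Both spots were well above every negative control, at 282 and 78.7 times the median. The mean and median pixel were 818 and 764 on the male and 205 and 203 on the female array. Pixels varied by 17.7% and 19.5% within the spot, more than in the Vom1r61 spots (12% and 11.7%), whose means were 387 and 394. On the female array the Vom1r61 spot was thus the brighter one, and the Vom1r30 spot there, of mean 206, varied by 16.4%. The part of spot evenness in the difference was not tested. Vom1r98 gave 220 in the male and 57.8 in the female pool, 3.74-fold higher in the male pool (-1.90, spot SD 0.15). Its mean and median pixel were 302 and 284 on the male and 116 and 114 on the female array, with variation of 24.3% and 22.7%. The probe of Vom1r95, which matched the Vom1r98 probe at 48 of 60 bases, gave 3.51 and 2.61. Vom1r71 was detected in the male pool only, at 27 against 2.33, at least 2.77-fold higher, and the Vom1r70 probe that shares 21 bases with it gave 2.95 and 2.28.

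Set against all probes, 3 of 39 members detected in both pools (7.69%) were 2-fold or more higher in the male pool, Vom1r23, Vom1r98 and Tas2r121, and 0 in the female pool. Of all 24532 probes detected in both pools, 0.546% were 2-fold or more higher in the male and 0.151% in the female pool. The spot SD is larger for dim probes, and 33 of the 39 members lay over 16-fold below the 75th percentile. Vom1r98 and Tas2r121 were among these 33, and Vom1r23 was not. Among all 8033 such dim probes the shares were 1.22% and 0.336%. By the bound, 0 of 12 members detected in the female pool only reached 2-fold, against 5.53% of all 1121 such probes. The single member detected in the male pool only reached it, as did 59.5% of all 173 such probes.

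Where a probe sat on the array moved with these differences. Of 20 bands of array rows, 4 were picked for the highest share of dim spots, detected on both arrays, that were 2-fold or more higher on the male array. That share was 2.14% to 4.07% in these 4 and at most 1.71% in the others. The 4 bands held 20.4% of rat spots and 32 of the 150 members (21.3%). They held Vom1r98, Tas2r121 and Vom1r71, so that outside them 1 member, Vom1r23, was 2-fold or more higher in the male pool and 0 by the bound. Vom1r98 and Tas2r121 were themselves among the dim spots that picked the bands, so this drop is partly built in. The part of array position in the values of Vom1r98, Tas2r121 and Vom1r71 was not tested.

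Over all 39 members detected in both pools the directions were nearly balanced at this scaling. The median difference was 0.028, against -0.012 over all probes, with 20 higher in the female and 19 higher in the male pool. Scaling by spike-in probes, which moved all probes by 0.67 toward the female pool, gave a median of 0.701. Within 1.25-fold of equality lay 27 of 39 members (69.2%), against 89.3% of all probes detected in both pools. Beyond 2 spot SDs lay 7 of 39, while 21.6% of all such probes did. The 7 were Vom1r23, Vom1r98, Tas2r121, Tas2r113, Vom1r54, Taar5 and Vom1r30, and 6 of them were higher in the male pool. With spike-in scaling Taar5 and Vom1r54 no longer were, at 0.04 and 0.05, and Tas2r113 was at -0.05.

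**Figure D3:**
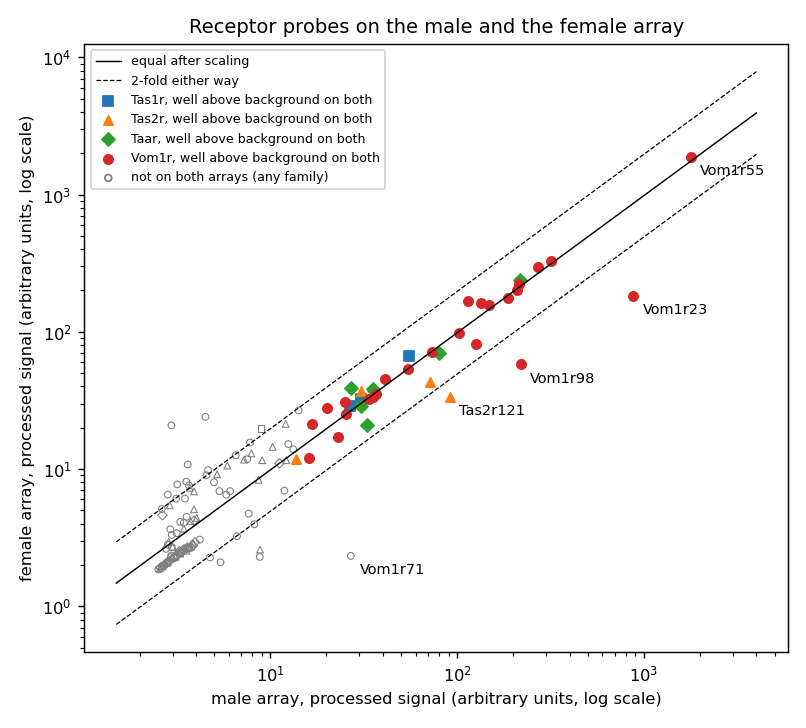
Processed signal of each receptor probe on the male (x axis) and the female array (y axis), both in arbitrary units on log scales; the solid line is equality after scaling and the dashed lines are 2-fold either way. Vom1r23, Vom1r98 and Tas2r121 lie beyond the 2-fold line on the male side, and Vom1r55 lies on the line of equality at 1780 and 1870.

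The probes detected in the female pool only were dim. Vom1r38 gave 26.7 in the female and 14.2 in the male pool (at least 1.91-fold), and Vom1r103 gave 24 and 4.5 (at least 1.86-fold). Vom1r50 gave 20.8 and 2.96 (at least 1.61-fold). Vom1r104, Vom1r48 and Vom1r76 gave 15.6, 15.2 and 13.9 in the female pool and 7.8, 12.5 and 13.3 in the male pool. All 6 lay outside the 4 bands, and they were named after their values were seen.

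Detected vomeronasal probes were spread over several clusters of the family. On chromosome 1, 7 of 18 probes between positions 57124704 and 59830158 were detected in both pools, 4 of 7 between 62590110 and 63287126, 1 of 8 between 66984193 and 68177507, and 7 of 22 between 71096061 and 73699919. On chromosome 4, 3 of 23 between 85980590 and 87100239 and 2 of 13 between 123811397 and 124515662 were detected, and on chromosome 7 it was 1 of 3. Each cluster joins members less than 1 Mb apart. The 3 on the first chromosome 4 stretch were Vom1r73, Vom1r77 and Vom1r78, whose probes resemble one another: those of Vom1r77 and Vom1r78 matched at 51 of 60 bases. In the 7-probe stretch, Vom1r29 lies between the detected Vom1r28 and Vom1r109 and gave 2.95 and 2.34.

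**Figure D4:**
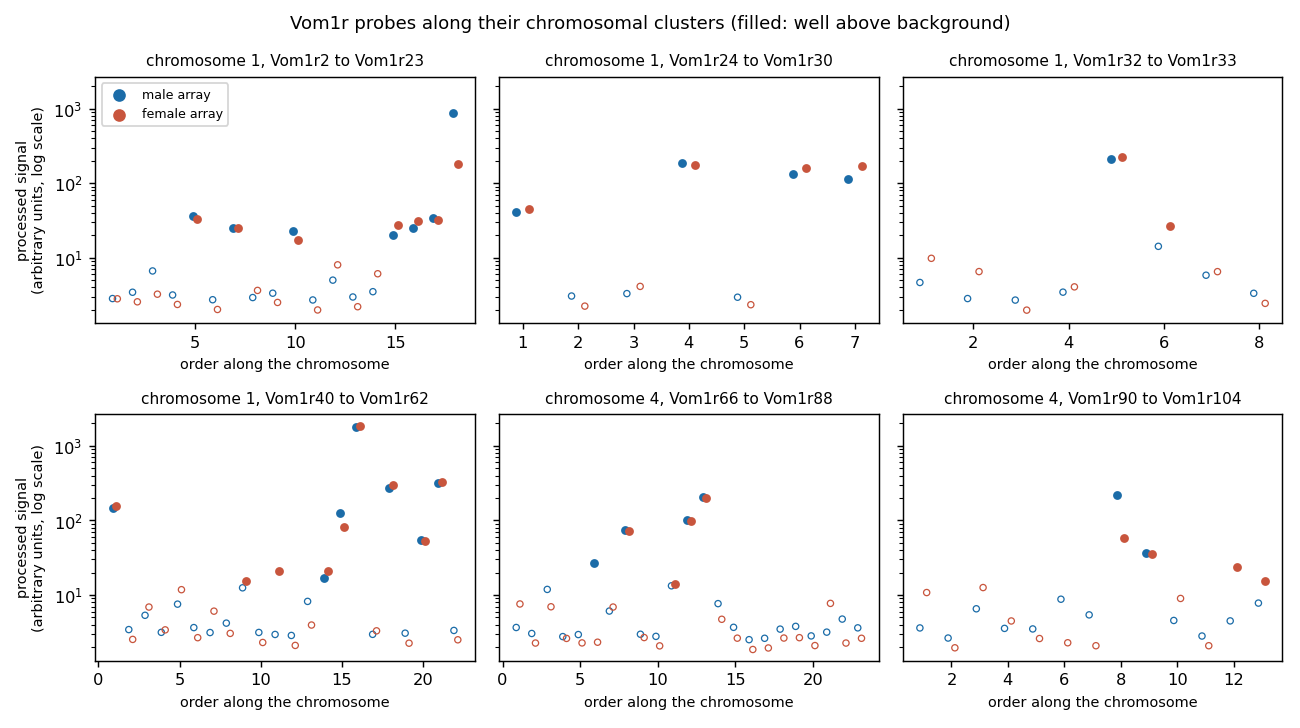
Signal of Vom1r probes (arbitrary units, log scale) in their order along 6 chromosomal clusters, male and female array; filled points are well above background. Each of the 6 clusters holds detected and undetected probes, and the male and female points of a probe mostly lie together.

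Probes of close relatives are given side by side. Those of Vom1r12 and Vom1r15 matched at 54 of 60 bases and gave 23 and 17.2 for the former and 5 and 8.02 for the latter. Vom1r72 and Vom1r76 matched at 56 of 60 bases and gave 6.1 and 6.9, and 13.3 and 13.9. Vom1r107 and Vom1r108 matched at 47 of 60 and gave 2.63 and 5.11, and 16.2 and 12. Both probes of Vom1r33, which share 51 bases, were detected in neither pool, with 5.82 and 6.5 for the former and 3.33 and 2.44 for the latter. These pairs, apart from Vom1r33, and the relatives and neighbours named beside other members (Vom1r95, Vom1r70, Vom1r53 and Vom1r29) were picked after their values were seen.

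Members that were detected had probes richer in G and C bases. The median G and C content was 43.3% for probes detected in both pools and 36.7% for those detected in neither. Detected in both pools were 6 of 51 members (11.8%) with at most 35% G and C, 9 of 46 (19.6%) above 35% and up to 40%, 21 of 50 (42%) above 40% and up to 45%, and 3 of 3 above that. Among Vom1r probes alone the shares were 9.3%, 25% and 59.1% in the first 3 classes. Odorant receptor probes showed the same order, 9.72%, 17.6%, 37.3% and 58.7%. Over all rat probes the shares were 74.7%, 73.1%, 79.5% and 90.6%. Base composition thus moved with detection in these families, and its part in which receptors were detected was not tested. Not every detected probe was rich in G and C, since those of Vom1r57 and Vom1r61, at 271 to 328, held 35%.

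**Figure D5:**
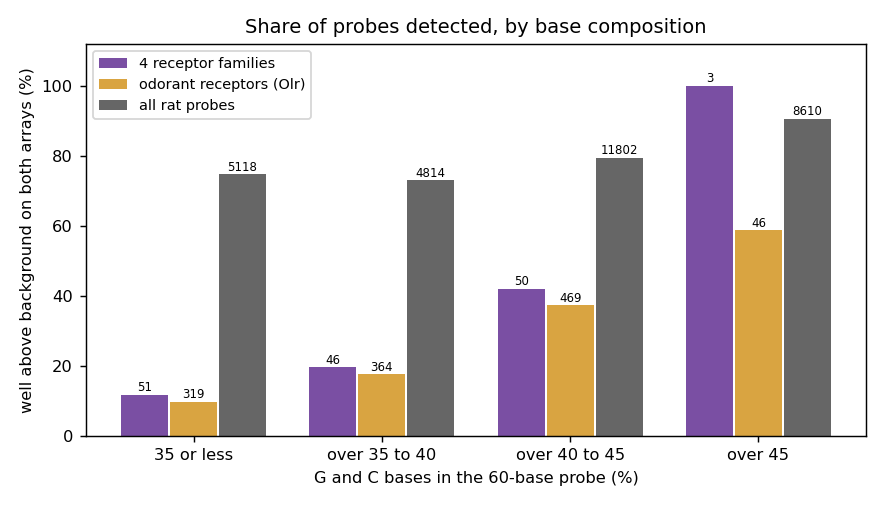
Share of probes well above background on both arrays (percent) by the G and C content of the 60-base probe, for the 4 receptor families, the odorant receptors and all rat probes, with the number of probes above each bar. In the receptor families the share climbs from 11.8% to 42% over the 3 classes with many probes, and in the odorant receptors from 9.72% to 58.7%.

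Markers of the nasal cells in which these receptors are known were read in part. Of the 9 genes of olfactory epithelium on the arrays, 5 were detected in both pools and 3 in neither, where 80.8% of all rat probes were detected in both. Omp, the marker of mature olfactory neurons, gave 10.7 and 6.41, Cnga2, a subunit of their transduction channel, gave 2.81 and 2.08, and Stoml3 gave 3.46 and 2.11, and none of the 3 was well above background. Cnga4, another subunit of that channel, was detected in the female pool only, at 15.1 against 5.5. Rtp1 and Rtp2, chaperones that carry odorant receptors to the cell surface, were detected at 32.4 and 42.8 and at 28.6 and 40.7. The other detected genes of this list were brighter: Gnal gave 2610 and 2870 on its brightest probe, Adcy3 gave 734 and 692, and Cngb1 gave 519 and 498. All 4 genes of a vomeronasal neuron list, Gnai2, Gnao1, Gng8 and Ano1, were detected, but these are G protein subunits and a channel with wide use in other cells, and they differed by at most 0.15 between the pools. Trpc2, the channel that defines vomeronasal neurons, was not analysed here.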

How the data were processed

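The deposited intensity values are processed signals of single-colour Agilent arrays, background-subtracted and detrended within each array, per the file headers. Those headers name Feature Extraction 10.7.3.1 and the rn4 build, whereas the submitters' processing notes give version 9.1, and both arrays lay on the same slide. Members were rat probes whose gene name in the files begins with Tas1r, Tas2r, Taar or Vom1r and a digit; 101 of 150 matched the GRCr8 reference table by accession, all under the same symbol, and the other names are those of the files. Members and lists were chosen with earlier results of these data known.

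The log2 signal was set relative to each array's 75th percentile over rat spots; repeated spots were averaged. Controls and 430 rat spots with outlier flags did not enter, and no member was among them. With 1 array per sex there was no test, so precision is limited by how few arrays there are. The threshold was 2-fold. Spot SDs came from probes spotted 10 times and were 0.27, 0.15, 0.09 and 0.07 from the dimmest to the brightest class (limits at 64-, 16- and 4-fold below the 75th percentile). Clusters were split at gaps over 1 Mb.

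Named were all detected taste and trace amine members, Tas1r1 to Tas1r3 and Taar1, Vom1r members above the highest negative control on both arrays or 2-fold apart, members with several probes, and list members not detected or with the largest differences. A deposited value table held the same intensity values times 1 factor per array, so its scale is linear and it is not centred (medians 28 and 27.3); it listed 52 members. Alternatives were other detection marks, scalings (median, quantile, spike-in, loess of span 0.3), normexp with an offset of 50 in limma 3.58.1 (R 4.3.3), the value table, other filters, thresholds of 1.5- and 3-fold, and leaving out the 4 bands of array rows. The averaging of spots and the 2-fold call were tested on simulated data, with changes set only in probes that stood clear of background. The bounds, bands, scalings and sequence steps were not tested in this way. Other steps used Python 3.11.15 with pandas 2.3.3 and numpy 2.4.6. The sequence of 1 probe is not reported here.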

Additional observations from a re-analysis of the deposited data

How the results depend on the processing

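The count of detected members moved most with the mark of detection. On the male array 40 became 79 by the software's positive-and-significant mark, 72 above the 95th percentile of negative controls, and 26 with members taken by current symbol through the accession, which leaves fewer probes. The female count of 51 became 99 and 93 by those marks and 16 above the highest negative control. The count of 39 on both arrays became 76, 67, 16 and, by current symbol, 25. Above the highest control spot without an outlier flag, a mark added after seeing the data, the counts were 72, 92 and 67. Members 2-fold or more higher in the male pool were 3, and became 10 without a background filter, 6 at 1.5-fold, 1 without the 4 bands of array rows, and 2 with spike-in scaling and with normexp, under which Tas2r121 no longer reached 2-fold. In the female pool 0 became 4 with spike-in scaling (Vom1r30, Taar2, Vom1r20 and Vom1r53), 4 when detection on 1 array was enough and 12 without a filter. Spike-in scaling moved all probes by 0.67 and the members' median from 0.028 to 0.701 toward the female pool, and each of the 39 members with it; under it Vom1r23, Vom1r98 and Tas2r121 differed by -1.58, -1.23 and -0.75. With normexp they differed by -1.91, -1.32 and -0.61, and 13 of 39 members moved beyond their spot SD. By the bound, 0 members on the female array became 5 at 1.5-fold, and 1 on the male array became 0 at 3-fold and 0 without the bands. Above the highest negative control, 3 of the olfactory genes and 3 of the nutrient receptors remained detected in place of 5 and 5. The 3 members 2-fold higher in the male pool kept their direction under each alternative that gave them a value. Of the 39 differences, 15 changed sign with spike-in scaling (Vom1r12 from -0.39 to 0.28), 4 with normexp (Vom1r53 from 0.36 to -0.03), 2 each with median and quantile scaling and 1 with loess. The members' median was -0.049 without a filter, -0.009 with loess and -0.005 with normexp. The cause of each shift not built into its alternative was not tested. No replicate could be left out, and no paired analysis was possible because each sex had 1 array. Signal near the negative controls limits what can be said of the undetected members.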

Other observations

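Other receptors of nutrients were mixed in the same tissue. Of 9 such genes, 5 were well above background in both pools, against 80.8% of all rat probes. Casr, the calcium-sensing receptor, gave 3090 in the male and 2900 in the female pool (-0.07), and Gpr84, a receptor for medium-chain fatty acids, gave 1080 and 972 (-0.14). Cd36, a fatty acid transporter, was higher in the male pool on both of its probes (-0.38 and -0.35). Ffar2, a receptor for short-chain fatty acids, gave 17.5 and 20.8 (0.28). Ffar1 gave 2.96 and 4.92, Ffar3 gave 3.71 and 2.66, Ffar4 gave 5.74 and 11.3, and Gprc6a gave 8.47 and 11.5, and none of these fatty acid and amino acid receptors was well above background in either pool.

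Among the other receptor families of the nose, 2 of 297 odorant receptor probes detected in both pools differed by 2-fold or more toward the female pool and 6 toward the male pool. Among 22 type 2 vomeronasal probes detected in both pools the counts were 0 and 1. Their median differences, 0.131 for odorant receptors and 0.066 for type 2 vomeronasal receptors, lay toward the female pool.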
